A study of Mus musculus with 12 samples.

Results

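The goblet cell programme is taken here as a list of 32 genes, found by symbol among the 35869 gene rows of the count table. It comprises 8 secreted products, 9 transcription factors, 4 genes of protein folding and endoplasmic reticulum (ER) stress, and 11 genes of granule traffic, membrane and proteases. Of the 32 genes, 30 had enough counts to be tested. The other two, Tff1 and Tff2, were at 0 to 3 and 0 to 5 counts per library.

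Polyadenylated RNA was sequenced from colonoids, which are epithelial cultures grown in Matrigel from crypts of the C57BL/6 mouse colon, with EGF and L-WRN conditioned medium. The 4 groups, with 3 libraries each, were unstimulated, recombinant mouse IL-22 at 1 ng/mL, recombinant mouse IL-1b at 100 ng/mL, and both cytokines at these doses, all for 12 h. All groups share the strain, the gel and the medium, and none carries an altered gene. The labels give no age, and they do not say whether replicates are separate mice or wells, so the p-values measure the spread between these libraries, which may be technical.

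Goblet cells are the mucus-secreting cells of the intestinal epithelium. Their fate follows escape from Notch signalling, which allows the transcription factor Atoh1 to act, and Spdef, Klf4, Foxa and Creb3l factors take part in their maturation and secretory capacity. They fill granules with the gel-forming mucin Muc2 and its partner proteins. IL-22 acts on epithelial cells through its receptor and Stat3, and IL-1b through its own receptor, which activates NF-kB.

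The libraries held 4703902 to 5804033 counts. All 7 epithelial markers were tested, and their summed level was 2038 to 2587 CPM (counts scaled to library size and by TMM). The summed level of the 9 goblet markers was 1896 to 2327 CPM, and none of them was without counts in any group. In bulk RNA of this kind, fewer goblet cells and less RNA per goblet cell cannot be told apart. Summed over 9 immune genes, the level was 3.79 to 5.35 CPM in unstimulated, 5.85 to 9.75 in IL-22, 14.5 to 55.1 in IL-1b and 4.24 to 11.8 in both-cytokine libraries. The pan-leukocyte gene Ptprc had 104 counts in IL-1b replicate 1 and 0 to 20 in the other libraries, and Tyrobp was at 0 in all. The part of these transcripts in the results below was not tested.

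Upstream sequence is shown for 4 genes: the 2 secreted products with the CAGCTG E-box that many basic helix-loop-helix factors bind, the helix-loop-helix factor Atoh1 itself, and the 1 gene with the STAT motif TTCNNNGAA. The sequences are the 250 bases before the RefSeq gene start (build GRCm38.p6), on the gene's strand, with the motif in capitals. Muc2 lies at chr7:141690090-141690339 (plus strand), Fcgbp at chr7:28070986-28071235 (plus), Atoh1 at chr6:64728875-64729124 (plus) and Sytl4 at chrX:133981813-133982062 (minus).
Muc2: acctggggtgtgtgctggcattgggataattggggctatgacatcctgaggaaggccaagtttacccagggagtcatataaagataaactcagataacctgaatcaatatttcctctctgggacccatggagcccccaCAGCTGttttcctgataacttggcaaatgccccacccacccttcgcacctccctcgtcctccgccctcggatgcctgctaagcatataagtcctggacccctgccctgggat
Fcgbp: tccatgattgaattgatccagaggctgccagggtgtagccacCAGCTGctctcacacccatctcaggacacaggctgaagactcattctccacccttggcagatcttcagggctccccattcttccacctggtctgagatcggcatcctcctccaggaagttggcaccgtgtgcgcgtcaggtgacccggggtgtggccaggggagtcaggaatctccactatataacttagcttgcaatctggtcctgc
Atoh1: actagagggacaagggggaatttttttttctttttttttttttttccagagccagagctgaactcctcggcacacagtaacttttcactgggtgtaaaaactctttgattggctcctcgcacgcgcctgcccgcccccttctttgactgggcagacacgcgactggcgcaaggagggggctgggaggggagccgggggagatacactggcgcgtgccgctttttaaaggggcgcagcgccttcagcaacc
Sytl4: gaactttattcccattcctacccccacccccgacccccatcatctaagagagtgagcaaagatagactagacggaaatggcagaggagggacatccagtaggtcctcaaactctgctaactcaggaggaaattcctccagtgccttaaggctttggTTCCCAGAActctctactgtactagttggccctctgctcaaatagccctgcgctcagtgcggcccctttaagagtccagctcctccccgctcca
The E-box starts 112 bases upstream in Muc2 and 208 in Fcgbp, and the STAT motif 94 bases upstream in Sytl4. Promoter windows were matched for 21 of the 32 genes. Counting both strands, 4 of these 21 held the E-box (Muc2, Fcgbp, Klf4, Pdia5), against 13.0% of all 32851 windows, and 1 held the STAT motif, against 7.02%. The forkhead motif TGTTTAC occurred in Foxa1 alone of the 21 (3.17% of all windows) and the unfolded-protein-response element TGACGTG in Spdef alone (1.65%). Members were counted per gene, over all windows of that gene, while the shares are per window. The hits are matches of letters, not measured binding sites.

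IL-22 was followed by lower transcripts of several goblet cell regulators and granule genes and by higher Retnlb, while Muc2, Fcgbp, Tff3, Zg16 and Spink4 did not pass the test. Genes were called at an adjusted p under 0.05 in edgeR's quasi-likelihood test, adjusted by Benjamini-Hochberg over all 13987 genes tested. With IL-22, 22.5% of all genes tested were called, 11.9% higher and 10.6% lower. Of the 30 goblet cell genes, 3 were higher, 11 lower and 16 not called, with a median log2 fold change of -0.26, against -0.00036 over all genes tested. With both cytokines 27.0% of all genes were called (13.7% higher, 13.3% lower), and of the 30 genes 1 was higher and 11 lower, with a median of -0.23 against 0.0026. Both comparisons use the same unstimulated libraries.

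By role, the median log2 fold change with IL-22 was 0.11 for the 6 tested secreted products, -0.39 for the 9 transcription factors, -0.03 for the 4 folding and ER stress genes and -0.50 for the 11 granule and membrane genes. With both cytokines the medians were 0.07, -0.36, 0.07 and -0.52. Of the secreted products 1 was called higher and none lower in either comparison. Of the transcription factors 2 were higher and 4 lower with IL-22, and none higher and 3 lower with both. Of the 6 tested secreted products, 5 had at least 0.2 counts per exon base, a measure taken up further on. Over all genes at that density the median was 0.104 with IL-22 and 0.108 with both. The 7 epithelial markers had medians of 0.136 and 0.145. The difference between the roles has no test of its own here. The median of the secreted products with IL-22 was 0.0416 without IL-22 replicate 2 and 0.189 without IL-22 replicate 3.

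Some markers of other colonic cell types were called in the same comparisons. Over all genes tested 22.5% were called with IL-22 and 27.0% with both cytokines. The lists are short, and none was tested against these shares. Of 8 colonocyte markers 2 were higher and 1 lower with IL-22, and 2 higher with both cytokines. Ceacam20, a brush border adhesion protein, rose by 0.47 ± 0.06 and 0.32 ± 0.06 on the log2 scale (adjusted p = 0.000140 and 0.00218), and Krt20, a keratin of mature surface cells, by 0.26 ± 0.06 and 0.24 ± 0.06 (0.00783 and 0.0108). Alpi, an intestinal alkaline phosphatase, fell by 0.92 ± 0.20 with IL-22 (adjusted p = 0.00528). The summed colonocyte level was 1988 to 2268 CPM unstimulated, 2203 to 2382 with IL-22 and 2214 to 2250 with both. Of 6 tested stem cell markers 1 was higher in each comparison (Ephb2), 1 was lower with IL-22 (Ascl2) and 3 were lower with both (Lrig1, Axin2, Smoc2). Axin2, a Wnt target, stood at 0.27 ± 0.19 with IL-22 and fell by 0.85 ± 0.21 with both (adjusted p = 0.00749). The Ascl2 call (adjusted p = 0.0443) was lost with DESeq2 (0.158) and without any 1 unstimulated library (0.0534 to 0.129), and the Lrig1 call (0.0172) without unstimulated replicate 1 or both-cytokine replicate 2 or 3 (0.0516 to 0.0644). The summed stem cell level was 229 to 275 CPM unstimulated, 264 to 312 with IL-22 and 266 to 290 with both. Ephb2 had the highest counts of this list and weighs most in the sum. By gene, 3 of the 6 tested stem markers had negative differences with IL-22 (median 0.08) and 5 with both (median -0.54). Of 7 enteroendocrine markers, 1 was higher in each comparison (Cpe) and 2 were lower with both cytokines. These were the lineage factor Insm1 (-0.73 ± 0.19, adjusted p = 0.0112) and the granule protein Chga (-0.31 ± 0.08, adjusted p = 0.0117), whose call was lost without unstimulated replicate 2 (0.0587). The Cpe call with IL-22 was lost without replicate 1 or 2 of the unstimulated or IL-22 group (0.0553 to 0.102). With both cytokines it was lost in many alternatives, among them DESeq2 (0.0511) and leaving out any 1 both-cytokine library (0.0563 to 0.114). The summed enteroendocrine level was 352 to 368 CPM unstimulated, 334 to 407 with IL-22 and 322 to 329 with both. Of 2 tested tuft cell markers, Avil was higher in each comparison, with 6, 6 and 7 counts in the unstimulated libraries. Of 3 tested deep crypt secretory or Paneth markers, Kit was lower in each comparison and Mmp7 higher with both (log2 fold change 3.90). Mmp7 had 6, 2 and 3 counts unstimulated and 68, 33 and 51 with both. The IL-22 calls of Avil and Kit were lost in several alternatives. None of these lists had a gene without counts in all libraries. The part of these cell types in the goblet cell results was not tested.

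**Figure D1:**
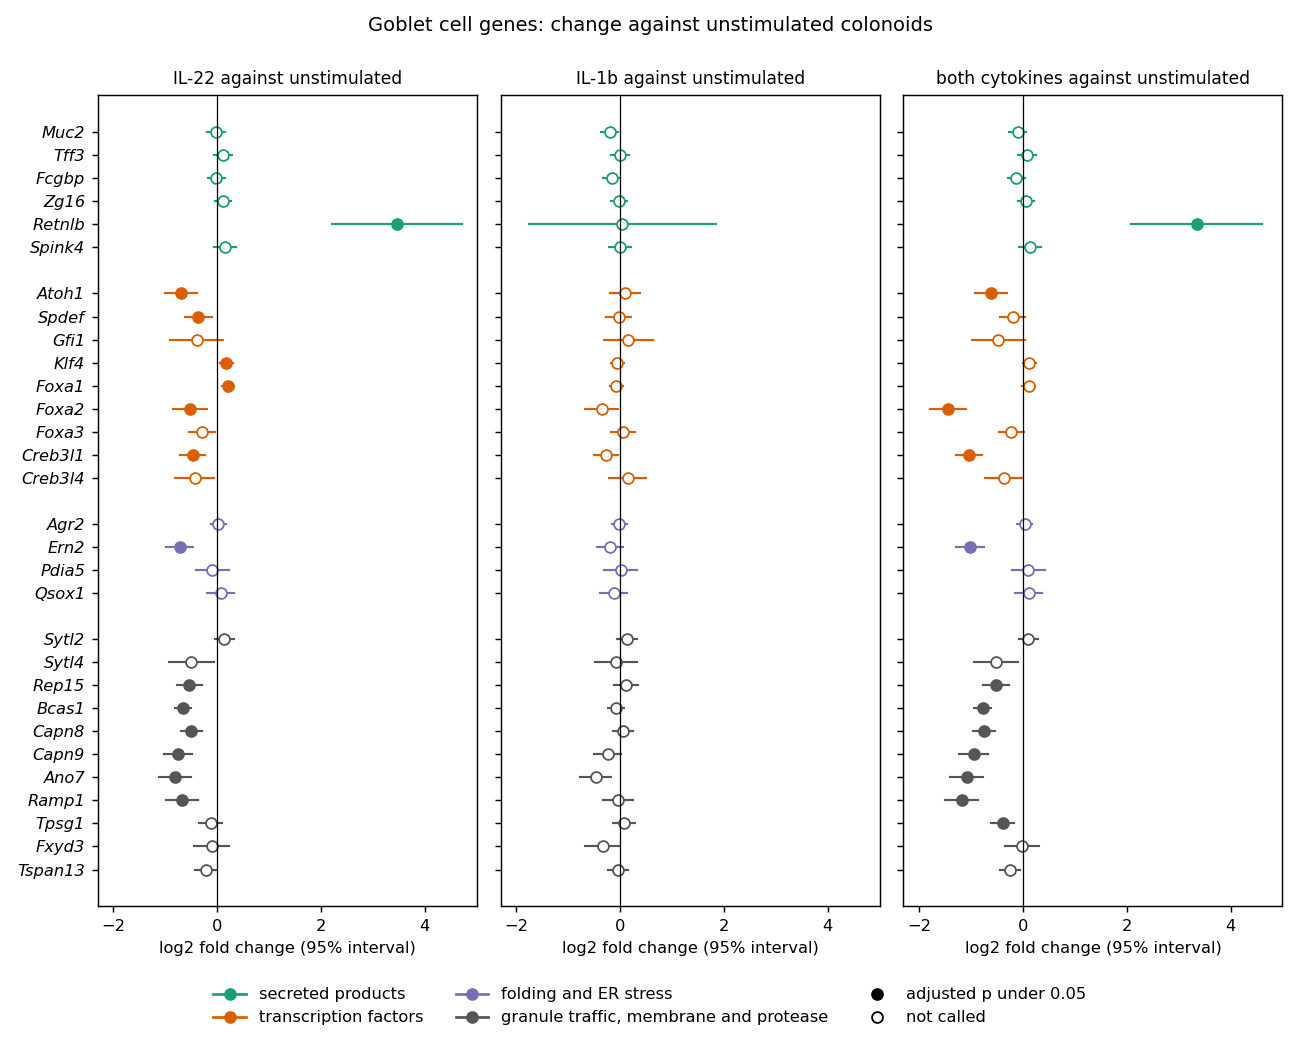
Log2 fold change against unstimulated of the 30 tested goblet cell genes, with 95% intervals, for IL-22, IL-1b and both cytokines (3 libraries per group); colour marks the role and filled points have an adjusted p under 0.05. Retnlb stands at 3.47 with IL-22 and 3.35 with both, the other secreted products lie near 0, filled points left of 0 are transcription factors, Ern2 and granule genes, and no point is filled with IL-1b.

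Among the secreted products, Retnlb (chr16:48816856-48818892, mm10), which encodes the goblet cell resistin-like molecule beta, was the gene that rose. Its level was 1.43, 1.64 and 0.190 CPM in the 3 unstimulated libraries and 21.3, 10.6 and 5.47 CPM with IL-22. It was 2.02, 0.188 and 1.16 CPM with IL-1b and 10.5, 12.3 and 11.4 CPM with both cytokines. Every library that received IL-22 was above every library that did not. The 3 IL-22 libraries spread widely, and the 3 both-cytokine libraries lay close together. The log2 fold change was 3.47 ± 0.59 (SE; adjusted p = 0.000841) with IL-22 and 3.35 ± 0.59 (adjusted p = 0.000883) with both. These are 11.1-fold and 10.2-fold, from counts of 18 in the unstimulated group, 180 with IL-22 and 168 with both. Leaving out IL-22 replicate 1 gave 7.12-fold for IL-22, with an adjusted p of 0.00306.

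Muc2 (chr7:141690340-141754693), the gel-forming mucin of the colon, was at 444, 422 and 409 CPM unstimulated, 448, 435 and 371 with IL-22, 366, 406 and 336 in IL-1b and 379, 417 and 395 in both-cytokine libraries. The groups overlapped except that all IL-1b libraries were below the unstimulated ones. Its difference was -1.65% with IL-22 (95% interval -12.3% to 10.3%) and -6.61% with both (-16.7% to 4.77%). With IL-1b it was -13.1% (-22.5% to -2.54%), which did not pass the test over all genes (adjusted p = 0.458).

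Fcgbp (chr7:28071236-28120862), an abundant protein that is built into the mucus with Muc2, was at 904, 887 and 834 CPM unstimulated, 841, 918 and 825 with IL-22, and 736, 897 and 764 with both. One of the both-cytokine libraries, replicate 2, stood at the unstimulated level and the other two were below it. With both cytokines the difference was -8.68% (95% interval -18.5% to 2.30%; adjusted p = 0.219). Without replicate 2 of that group the log2 difference was -0.22 and was called (adjusted p = 0.0374).

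Tff3 (chr17:31125306-31129646), a trefoil peptide of epithelial repair, was at 63.3, 65.7 and 69.0 CPM unstimulated and 73.1, 78.0 and 63.6 with IL-22. Zg16 (chr7:127050156-127087328), a lectin that binds Gram-positive bacteria in the mucus, was at 114, 121 and 122 CPM unstimulated and 128, 141 and 116 with IL-22. Spink4 (chr4:40920052-40931395), a Kazal-type protease inhibitor of goblet cells, was at 46.1, 49.1 and 50.8 CPM unstimulated and 59.5, 58.7 and 44.9 with IL-22. In all of these IL-22 replicates 1 and 2 were high and replicate 3 was low, so the groups overlapped. The differences with IL-22 were 8.24% for Tff3 (95% interval -4.13% to 22.2%), 7.76% for Zg16 (-2.94% to 19.6%) and 11.3% for Spink4 (-4.00% to 29.1%). The mean raw counts were 360 unstimulated and 347.7 with IL-22 for Tff3, 650.3 and 625 for Zg16, and 265.7 and 263.7 for Spink4. Raw counts were thus no higher with IL-22, and the positive differences appear after scaling to library size and by TMM. Without IL-22 replicate 3, Spink4 was called higher, with a log2 fold change of 0.28 (adjusted p = 0.0229).

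Tff1 and Tff2, trefoil peptides best known from gastric mucous cells, were close to absent. Tff1 had 1, 3, 0 and 1 counts in all over the 3 libraries of the unstimulated, IL-22, IL-1b and both-cytokine groups. Tff2 had 4, 0, 10 and 3. In 1 library, 3 counts stand for 0.499 to 0.665 CPM, so differences at this level were not detectable. Summed over all 8 secreted products the level was 1535 ± 45.5 CPM unstimulated, 1547 ± 110 with IL-22, 1388 ± 108 in the IL-1b and 1455 ± 97.7 in the both-cytokine group (SD, n = 3), and the ranges of the groups overlapped. Muc2 and Fcgbp make up most of this sum. Without them the level was 225.6 to 242.2 CPM unstimulated, 230.5 to 288.6 with IL-22, 220.3 to 239.8 in IL-1b and 250.3 to 269.2 in both-cytokine libraries. In this smaller sum only the both-cytokine libraries lay wholly above the unstimulated ones, and the difference was not tested.

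Among the transcription factors, Atoh1 (chr6:64729125-64731245), which commits progenitors to the secretory lineage, was at 33.9, 32.0 and 26.9 CPM unstimulated, 20.9, 19.3 and 17.0 with IL-22, 30.3, 33.7 and 35.4 in IL-1b and 19.0, 24.7 and 16.9 in both-cytokine libraries. All 6 libraries with IL-22 were below all 6 without it. Atoh1 fell with IL-22 (log2 fold change -0.70 ± 0.14, adjusted p = 0.00314) and with both cytokines (-0.61 ± 0.14, adjusted p = 0.00580).

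Foxa2 (chr2:148042877-148046969), a forkhead factor of the goblet and enteroendocrine lineages, was at 29.4, 27.8 and 26.7 CPM unstimulated, 17.6, 23.0 and 18.1 with IL-22, 18.0, 23.5 and 24.1 in IL-1b and 12.3, 9.80 and 8.58 in both-cytokine libraries. The both-cytokine libraries were the lowest, and those of either single cytokine lay between them and the unstimulated libraries. Foxa2 fell by 1.45 ± 0.16 on the log2 scale with both cytokines (adjusted p = 2.34e-05) and by 0.52 ± 0.15 with IL-22 (adjusted p = 0.0229). Leaving out IL-22 replicate 1 or 3, or replicate 1 or 2 of the unstimulated group, ended the IL-22 call (adjusted p 0.0664 to 0.0805). Between both cytokines and IL-22 alone the log2 difference was -0.93 ± 0.17 (adjusted p = 0.0668).

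Creb3l1 (chr2:91982328-92024502), an ER-anchored factor of secretory cells, was at 131, 114 and 134 CPM unstimulated, 83.0, 101 and 89.6 with IL-22, 90.6, 120 and 103 in IL-1b and 66.0, 65.9 and 51.3 in both-cytokine libraries. The IL-22 and both-cytokine libraries did not overlap with the unstimulated ones or with each other. Creb3l1 fell by 0.47 ± 0.11 with IL-22 (adjusted p = 0.00852) and by 1.05 ± 0.12 with both (adjusted p = 2.33e-05). The log2 difference between both cytokines and IL-22 alone was -0.58 ± 0.12 (adjusted p = 0.0978).

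Spdef (chr17:27714352-27728955), the Ets factor of goblet cell maturation, was at 43.5, 42.7 and 43.6 CPM unstimulated, 40.5, 32.6 and 28.3 with IL-22, and 42.6, 36.3 and 34.1 with both. The unstimulated libraries were nearly equal and those with IL-22 spread below them. Its log2 difference of -0.36 ± 0.12 with IL-22 was just past the threshold (adjusted p = 0.0410). The call was lost without any 1 of the unstimulated or IL-1b libraries or IL-22 replicate 2 or 3, with adjusted p between 0.0530 and 0.145. It was also lost with DESeq2 (0.0621) and in a fit of only the libraries compared (0.0809). With both cytokines the difference was -0.20 ± 0.12 (adjusted p = 0.218).

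Klf4 and Foxa1 were the transcription factors called higher with IL-22. Klf4 (chr4:55527143-55532466), a zinc finger factor needed for colonic goblet cell differentiation, was at 360, 362 and 368 CPM unstimulated, 386, 448 and 400 with IL-22, and 387, 409 and 390 with both. Foxa1 (chr12:57540628-57546916), a forkhead factor related to Foxa2, was at 130, 122 and 127 CPM unstimulated, 143, 149 and 146 with IL-22, and 133, 142 and 135 with both. Neither gene's IL-22 libraries overlapped with its unstimulated ones. Klf4 rose by 0.18 ± 0.06 (adjusted p = 0.0351) and Foxa1 by 0.21 ± 0.06 (adjusted p = 0.0167) on the log2 scale with IL-22. The Klf4 call was lost without any 1 unstimulated library or IL-22 replicate 2 (adjusted p 0.0603 to 0.139), with total counts (0.0745) and with only the libraries compared (0.0970), and the Foxa1 call without unstimulated replicate 2 (0.0746) or IL-22 replicate 2 (0.0588). With both cytokines the values were 0.12 ± 0.06 and 0.11 ± 0.06, and neither was called.

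The remaining factors were not called against unstimulated. Foxa3, a forkhead factor, had a log2 difference of -0.29 ± 0.11 with IL-22 (adjusted p = 0.0792), and it was called without replicate 2 of the both-cytokine group (0.0305). Creb3l4 was at -0.43 ± 0.17 (adjusted p = 0.0899), and Gfi1, a repressor downstream of Atoh1, at -0.39 ± 0.24 (0.268). The counts of Gfi1 were low, at 19 to 61 per library. In all, 7 of the 9 factors had negative differences with IL-22.

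**Figure D2:**
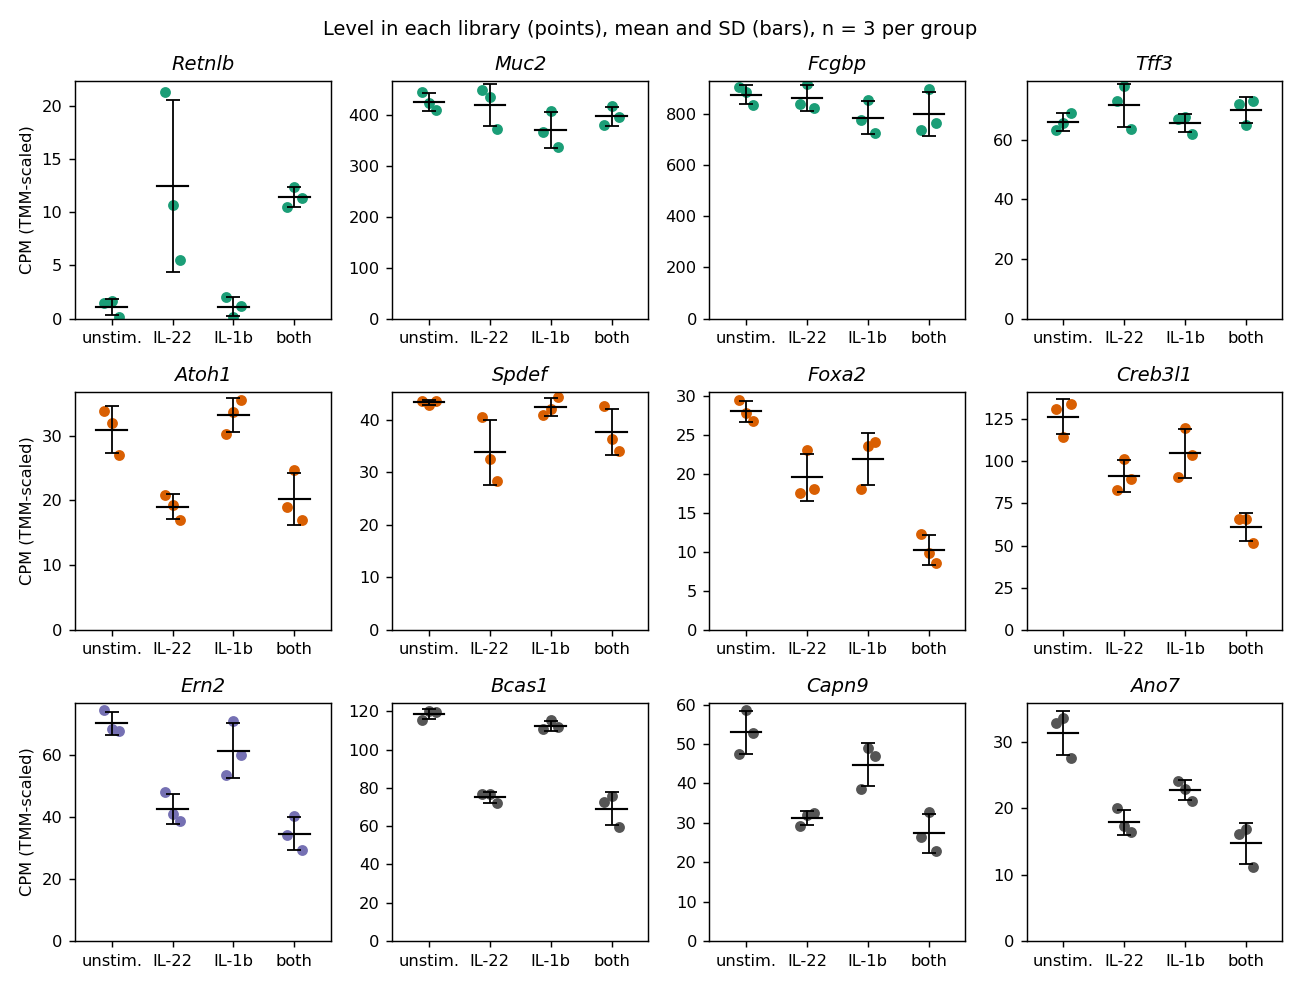
Level in CPM in each of the 12 libraries (points) with the mean and SD of each group (bars, n = 3) for 4 secreted products (top row), 4 transcription factors (middle row), and Ern2, Bcas1, Capn9 and Ano7 (bottom row). Muc2, Fcgbp and Tff3 overlap between unstimulated and IL-22 libraries, while Atoh1, Ern2, Bcas1, Capn9 and Ano7 are lower in every library that received IL-22 than in every unstimulated one.

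Of the folding and ER stress genes, Ern2 (chr7:122169893-122186207), the epithelial IRE1 beta stress sensor, was at 74.5, 68.4 and 67.9 CPM unstimulated, 48.1, 41.0 and 38.7 with IL-22, 53.5, 70.9 and 60.0 in IL-1b and 34.3, 40.2 and 29.4 in both-cytokine libraries. Every library with IL-22 was below every library without it. Ern2 fell by 0.72 ± 0.12 on the log2 scale with IL-22 (adjusted p = 0.000794) and by 1.02 ± 0.12 with both (adjusted p = 4.65e-05). Agr2, the disulfide isomerase that assists Muc2 assembly, was at 101, 106 and 112 CPM unstimulated and 114, 113 and 98.1 with IL-22, and its groups overlapped. Its difference with IL-22 was 1.57% (95% interval -8.25% to 12.4%). Pdia5, a further disulfide isomerase, and Qsox1, a sulfhydryl oxidase, had log2 differences of -0.09 ± 0.15 and 0.07 ± 0.12 with IL-22, and neither was called.

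Among the granule and membrane genes 6 fell with IL-22 and 7 with both cytokines. Bcas1 (chr2:170346991-170427845), a marker of goblet cells whose role there is not well defined, was at 115, 120 and 120 CPM unstimulated, 76.6, 76.9 and 71.9 with IL-22, 111, 116 and 112 in IL-1b and 72.4, 75.7 and 59.4 in both-cytokine libraries. The groups with and without IL-22 were far apart compared with the spread within them. Bcas1 fell by 0.66 ± 0.08 with IL-22 (adjusted p = 3.76e-05) and by 0.77 ± 0.08 with both (adjusted p = 7.51e-06).

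Capn9 (chr8:124576111-124618731), a calpain protease of the digestive tract, was at 47.4, 58.6 and 52.9 CPM unstimulated, 29.3, 32.1 and 32.4 with IL-22, 38.6, 48.9 and 46.9 in IL-1b and 26.4, 32.7 and 22.7 in both-cytokine libraries. Its partner Capn8 (chr1:182565007-182632352) was at 44.0, 41.3 and 41.3 CPM unstimulated, 25.8, 32.1 and 31.9 with IL-22, 42.1, 46.8 and 43.2 in IL-1b and 27.0, 24.5 and 24.0 in both-cytokine libraries. In both calpain genes all libraries with IL-22 were below all libraries without it. Capn9 fell by 0.76 ± 0.13 (adjusted p = 0.000874) with IL-22 and by 0.95 ± 0.13 (adjusted p = 0.000126) with both. Capn8 fell by 0.50 ± 0.10 (adjusted p = 0.00247) and by 0.74 ± 0.10 (adjusted p = 0.000106).

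Ano7 (chr1:93373930-93404303), a membrane protein of the anoctamin family, was at 32.8, 33.6 and 27.5 CPM unstimulated, 20.0, 17.3 and 16.4 with IL-22, 24.1, 23.0 and 21.1 in IL-1b and 16.1, 16.9 and 11.2 in both-cytokine libraries. All treated libraries were below all unstimulated ones. Ano7 fell by 0.81 ± 0.14 with IL-22 (adjusted p = 0.00131) and by 1.08 ± 0.15 with both (adjusted p = 0.000122), and its difference of -0.46 ± 0.14 with IL-1b was not called (adjusted p = 0.339).

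Ramp1 (chr1:91179822-91225196), a co-receptor for the neuropeptide CGRP, was at 31.2, 35.3 and 38.9 CPM unstimulated, 22.7, 22.4 and 20.9 with IL-22, 34.4, 31.4 and 36.1 in IL-1b and 19.2, 11.6 and 15.9 in both-cytokine libraries. Rep15 (chr6:147032584-147034245), a binding partner of the traffic GTPase Rab15, was at 41.7, 50.7 and 57.7 CPM unstimulated, 32.4, 33.0 and 37.7 with IL-22, 53.1, 51.7 and 57.5 in IL-1b and 32.7, 37.8 and 34.1 in both-cytokine libraries. In each, the libraries with IL-22 were below those without. Ramp1 fell by 0.67 ± 0.14 (adjusted p = 0.00386) with IL-22 and by 1.18 ± 0.15 (adjusted p = 6.42e-05) with both. Rep15 fell by 0.54 ± 0.11 (adjusted p = 0.00414) and by 0.52 ± 0.11 (adjusted p = 0.00419).

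Tpsg1 (chr17:25369273-25374442), a membrane-anchored tryptase, was at 40.4, 42.4 and 37.6 CPM unstimulated, 39.2, 39.0 and 32.4 with IL-22, and 30.1, 28.4 and 33.7 with both. Only the both-cytokine libraries lay wholly below the unstimulated ones. Tpsg1 fell by 0.39 ± 0.10 with both (adjusted p = 0.0133), a call lost without unstimulated replicate 2 (0.0608) or replicate 2 of the both-cytokine group (0.0544). Tspan13, a tetraspanin, had a log2 difference of -0.25 ± 0.09 with both (adjusted p = 0.0581), and was called without IL-22 replicate 1 (0.0446) or 3 (0.0235), with total counts (0.0348) and with only the libraries compared (0.0454). With total counts it was also called lower with IL-22 (0.0461). Sytl4, a synaptotagmin-like protein of granule docking and the holder of the STAT motif printed above, was at -0.52 ± 0.20 with both (adjusted p = 0.0696), and was called without replicate 1 of that group (0.0305). Its relative Sytl2 was at 0.11 ± 0.09 and Fxyd3, a regulator of the sodium pump, at -0.02 ± 0.15 with both, and neither was called.

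Exon bases are shared with a gene on the opposite strand by Tff1, Gfi1, Qsox1, Bcas1, Tpsg1 and Fxyd3. For Fxyd3, 2059 of 4850 exon bases are shared with Lgi4, and for Bcas1 474 of 3775 with its antisense genes. The counting strand is not given in the sources used here, so reads of such partners cannot be told apart and these counts are uncertain.

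IL-22 added to IL-1b was read from both cytokines against IL-1b alone, which shares the both-cytokine libraries with the comparison above. Here 26.3% of all genes were called (13.3% higher, 13.0% lower), and of the 30 goblet cell genes 3 were higher (Retnlb, Klf4, Foxa1) and 12 lower. The lower ones were Atoh1, Foxa2, Creb3l1, Creb3l4, Ern2, Rep15, Bcas1, Capn8, Capn9, Ano7, Ramp1 and Tpsg1. Secreted products had a median log2 fold change of 0.10 and transcription factors one of -0.51. The calls of Creb3l4, Klf4 and Foxa1 were the ones lost under the alternatives run. Creb3l4 missed the threshold without IL-1b replicate 1 or 3 or any 1 both-cytokine library (adjusted p 0.0689 to 0.157). Klf4 missed it without unstimulated replicate 2, IL-1b replicate 1 or 3 or any 1 both-cytokine library (0.0524 to 0.150), and Foxa1 without IL-1b replicate 3 or both-cytokine replicate 2 or 3 (0.0692 to 0.164). With DESeq2 the calls of Creb3l4 (0.104) and Foxa1 (0.0618) were lost, with no filter also Creb3l4 (0.0637) and Foxa1 (0.0511), and with total counts Klf4 (0.0768) and Foxa1 (0.0910). After correction for count per exon base, described further on, the calls of all 3, Creb3l4 (0.0794), Klf4 (0.571) and Foxa1 (0.162), were lost. Calls were gained by Qsox1 (higher) without IL-22 replicate 2 (0.0389), Tspan13 (lower) without IL-22 replicate 3 (0.0497) and Sytl4 (lower) without both-cytokine replicate 1 (0.0453). With only the libraries compared Qsox1 (0.0435) and Tspan13 (0.0472) gained a call, and with total counts Gfi1 (lower, 0.0445).

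None of the 30 genes was called with IL-1b alone. Over all genes 0.0715% were called, all higher. At an unadjusted p under 0.05 there were 5 of the 30 genes and 1338 of the 13987. DESeq2 called none of the 30 and had 4 of them, and 824 of all genes, at an unadjusted p under 0.05. The median log2 difference was -0.04, against -0.0076 for all genes. The IL-1b libraries are those with the highest immune marker sums given above. The sum of 6 fibroblast markers, of which 1 was tested, was 34.9 CPM in IL-1b replicate 1 and 13.2 and 13.6 CPM in the other two. It was 7.59 to 10.3 CPM in unstimulated, 7.73 to 13.6 in IL-22 and 8.15 to 12.9 in both-cytokine libraries. The part of these transcripts in the IL-1b values was not tested.

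Adding IL-1b to IL-22 called none of the 30 genes in edgeR, where 0.0786% of all genes were called (0.0643% higher, 0.0143% lower). At an unadjusted p under 0.05 there were 6 of the 30 and 1440 of the 13987. DESeq2 called Foxa2 (log2 difference -0.93, adjusted p = 0.00493) and Creb3l1 (-0.58, adjusted p = 0.00377) lower with both cytokines than with IL-22. With no filter edgeR also called Foxa2 (adjusted p = 0.000601) and Creb3l1 (5.05e-05). With the filter, Foxa2 was called without IL-22 replicate 1 (adjusted p = 0.0322) or both-cytokine replicate 1 (0.0422). Departure from additive effects on the log2 scale (the interaction) was called for none of the 30 genes and for no gene of all tested (0%). For this contrast 4 of the 30 genes, and 705 of all genes, had an unadjusted p under 0.05, and DESeq2 called 4 genes over all and none of the 30. The interaction of Foxa2 was -0.57 ± 0.22 (adjusted p = 0.924).

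The secreted products and the transcription factors differed in how densely their transcripts were counted, which bears on the comparison of the roles. Averaged over the 12 libraries, the count per exon base was 0.719 for Tff3, 0.557 for Spink4, 0.505 for Zg16, 0.412 for Fcgbp and 0.293 for Muc2, against 0.0107 to 0.194 for 7 of the 9 transcription factors. Klf4 (0.646) and Foxa1 (0.206) were the exceptions among the factors, and Retnlb (0.0461) among the 6 tested secreted products. The raw counts of the densest short genes varied less between libraries than random sampling would give: 332 to 373 counts for Tff3 (variance over mean 0.416), 238 to 288 for Spink4 (0.538) and 595 to 666 for Zg16 (0.765).

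Of the 8 goblet cell genes at 0.2 counts per exon base or more, 2 were called higher and none lower with IL-22. Of the 22 below it, 1 was called higher and 11 lower. Over all genes at 0.2 or more (1943 genes) 25.9% were called higher and 4.79% lower, and over the 11336 below it 9.79% and 11.8%. Role and count density therefore cannot be told apart for the 5 abundant secreted products. Within the less dense range, all 7 transcription factors had negative log2 differences with IL-22, and 4 of them were called lower.

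Removing the trend of the fold change on count per exon base moved the dense genes downward. With IL-22, Klf4 then stood at 0.04 (adjusted p = 0.583) and Foxa1 at 0.13 (adjusted p = 0.0913), and both calls were lost. With both cytokines Fcgbp then stood at -0.24 and was called lower (adjusted p = 0.0293), and Muc2 at -0.20 (adjusted p = 0.0634). The median of the secreted products became -0.02 with IL-22 and -0.05 with both cytokines, both below 0, and that of the transcription factors -0.36 and -0.28. In this setting 11 of the 30 genes were lower with IL-22 and 13 with both, and Retnlb was the 1 gene higher in each. Over all 13279 genes of this setting, 1428 were higher and 1260 lower with IL-22, and 1705 and 1698 with both.

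**Figure D3:**
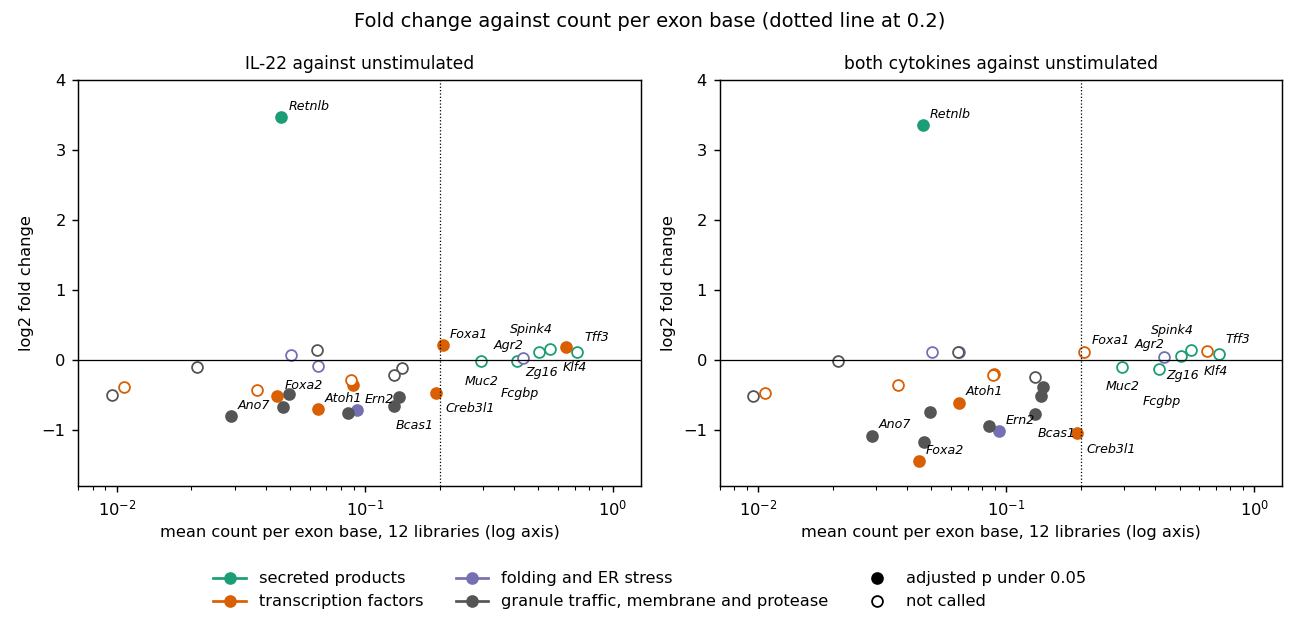
Log2 fold change against unstimulated (y axis) and mean count per exon base over 12 libraries (x axis, log scale) of the 30 tested goblet cell genes, for IL-22 and both cytokines; colour marks the role, filled points have an adjusted p under 0.05, and the dotted line stands at 0.2. To the right of the line lie 8 genes, none called lower, and all 11 genes called lower in each comparison lie to its left.

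Levels per length, in CPM per kilobase of exon, also show the order of abundance in unstimulated colonoids. Tff3 was highest (134 ± 5.89, SD, n = 3), followed by Klf4 (119 ± 1.36), Spink4 (102 ± 4.96), Zg16 (94.8 ± 3.30), Fcgbp (83.3 ± 3.49), Agr2 (82.5 ± 4.32) and Muc2 (59.6 ± 2.48). Fcgbp and Agr2 did not differ beyond their spread. Spink4 and Zg16 were read in the same 3 libraries, and their order within these libraries was not tested. Atoh1 stood at 14.6 ± 1.69 and Foxa2 at 11.8 ± 0.56, and the lowest tested gene was Retnlb (1.56 ± 1.12). The sources used here do not state whether duplicate reads were removed, and the part of that step in this order, or in the low variance of Tff3, Spink4 and Zg16 given above, was not tested.

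The surrounding pathways were read from lists of further genes, chosen like the members with earlier results known. Over all genes tested, 11.9% were called higher and 10.6% lower with IL-22, and 13.7% and 13.3% with both cytokines. None of the lists below was tested against these shares. Of 17 tested Notch and secretory fate genes, 2 were higher and 4 lower with IL-22, and 2 higher and 6 lower with both cytokines. Sox9, a progenitor factor, fell by 0.65 ± 0.16 with IL-22 (adjusted p = 0.00991) and by 0.91 ± 0.17 with both (adjusted p = 0.00112), and the IL-22 call was lost without IL-22 replicate 2 (0.0509). Notch1 fell by 0.90 ± 0.22 with both (adjusted p = 0.00747), the ligand Jag1 by 0.81 ± 0.16 (0.00227) and the ligand Dll1, which secretory precursors carry, by 1.33 ± 0.27 (0.00256). Hes1, the Notch target that represses Atoh1 and was picked here after its values were seen, fell by 0.28 ± 0.07 with both (adjusted p = 0.00552). Atoh1 and Hes1 were thus both lower with both cytokines. With IL-22 alone Notch1 (-0.79 ± 0.22), Jag1 (-0.62 ± 0.16) and Hes1 (-0.23 ± 0.06) were also called lower, and each call was lost without unstimulated replicate 1. It was also lost without IL-22 replicate 2 for Notch1 and Jag1, without IL-22 replicate 3 for Notch1, and without unstimulated replicate 2 or IL-22 replicate 1 for Hes1 (adjusted p 0.0568 to 0.0939 over all of these). The Hes1 call with IL-22 was also lost with DESeq2 (0.0697), no filter (0.0762) and only the libraries compared (0.0735), and that of Notch1 with the trend removed (0.0702). Elf3, an epithelial Ets factor, rose by 0.30 ± 0.06 with IL-22 (0.00163) and by 0.29 ± 0.06 with both (0.00175). Bhlha15 was also called higher with both (log2 fold change 1.49), from 20, 15 and 12 counts unstimulated to 43, 36 and 40. With IL-22 alone it was not called. Sox4 was also called higher with IL-22, a call lost without replicate 1 or 2 of the unstimulated or IL-22 group (0.0575 to 0.126).

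**Figure D4:**
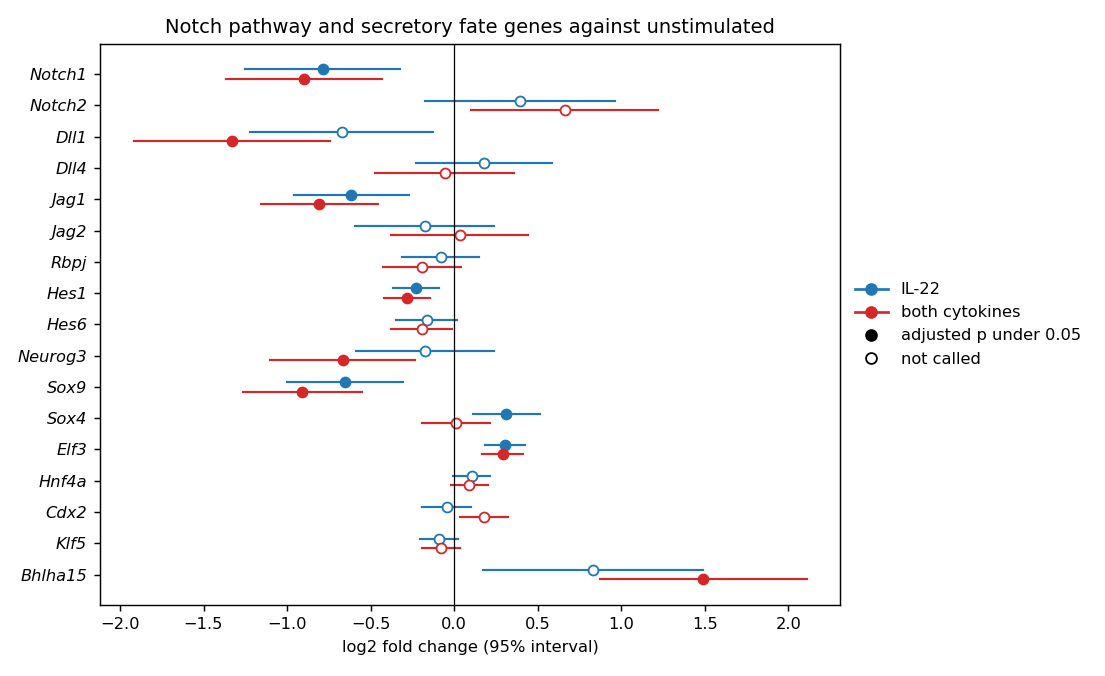
Log2 fold change against unstimulated of 17 tested Notch pathway and secretory fate genes, with 95% intervals, for IL-22 and both cytokines (3 libraries per group); filled points have an adjusted p under 0.05. Notch1, Jag1, Sox9 and Hes1 are filled left of 0 in both comparisons and Dll1 with both cytokines (-1.33). Filled right of 0 are Elf3 in both comparisons, Sox4 with IL-22 and Bhlha15 with both cytokines.

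Of 19 tested granule exocytosis genes, 3 were higher and 6 lower with IL-22, and 3 higher and 7 lower with both. Rab37, a secretory granule GTPase, fell by 1.77 ± 0.29 with IL-22 (adjusted p = 0.000630) and by 1.22 ± 0.27 with both (0.00420). Unc13b, a vesicle-priming factor, rose by 0.32 ± 0.08 and 0.29 ± 0.08 (adjusted p = 0.00943 and 0.0141).

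Of 18 tested mucin glycan enzymes, 7 were higher and 2 lower with IL-22, and 8 higher and 3 lower with both. Chst4, a sulfotransferase, rose from 46.1 ± 3.78 CPM to 112 ± 2.91 with IL-22 and 112 ± 0.631 with both (log2 fold changes 1.29 ± 0.09 and 1.28 ± 0.09, adjusted p = 4.15e-07 and 2.90e-07). Fut2, the fucosyltransferase of the intestinal surface, rose from 177 ± 11.4 CPM to 353 ± 11.8 and 364 ± 3.75 (1.00 ± 0.05 and 1.04 ± 0.05, adjusted p = 3.84e-08 and 1.75e-08). Galnt5 fell by 0.82 ± 0.17 and 1.08 ± 0.17 (adjusted p = 0.00313 and 0.000396). The enzymes that modify mucins thus moved in both directions while the Muc2 difference did not pass the test.

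Of 20 further goblet cell genes tested, 4 were higher and 4 lower with IL-22, and 4 higher and 6 lower with both. Xbp1, the unfolded protein response factor of secretory cells, rose by 0.62 ± 0.05 and 0.59 ± 0.05 (adjusted p = 4.46e-06 and 4.59e-06), and Muc13, a membrane mucin, by 0.36 ± 0.06 and 0.33 ± 0.06 (0.00115 and 0.00157). Hepacam2 fell by 0.69 ± 0.09 and 0.62 ± 0.08 (6.79e-05 and 0.000118), and the protease Bace2 by 0.44 ± 0.09 and 0.47 ± 0.09 (0.00214 and 0.00118). None of these 4 lists had a gene called with IL-1b alone.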

How the data were processed

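Per the labels' protocols, libraries were made with a stranded TruSeq kit. The deposited table holds whole-number counts per gene symbol, not normalized, which the authors made on build mm10, per the submitters' processing notes. Which aligner, counter, counting strand and annotation they used is not given in the sources used here. The goblet cell genes and the other lists were chosen with earlier results of these data known. Of 35869 symbols, 11498 had no count, and filterByExpr kept 13987. Counts were scaled by TMM (factors 0.957 to 1.04) and fitted to all 12 libraries with edgeR 4.0.16 (R 4.3.3), with 1 mean per group, quasi-likelihood tests and Benjamini-Hochberg adjustment over all genes tested. Standard errors were the size of the log2 fold change divided by the root of F. Every member could be named, and from each other list up to 3 called genes per direction in each of 2 comparisons (IL-22 and both cytokines against unstimulated). Hes1 and the marker genes named fall outside this rule. Exon lengths and positions came from GENCODE M21, with 26762 symbols matched directly and 512 by RefSeq synonym. Alternatives were DESeq2 1.42.0 (size factors, Wald test), total counts, other filters, the compared libraries only, a replicate block, fold changes corrected for count per exon base by lowess with a span of 0.3, and leaving out each library. The fit was tested on simulated data with 200 changed genes, drawn from the fit's own estimates of spread. For IL-22 against unstimulated, on 13830 genes, 59% of 1.5-fold and 86.9% of 2-fold changes were recovered and 8 unchanged genes were called. For the interaction 38% and 63% were recovered and 4 unchanged genes were called. The simulated counts held no trend on count per exon base and no variance below random sampling, so they do not test the calls of dense genes. Intervals and floors cover counting error or replicate spread only. Over 8707 genes of low count per exon base, chi-square over its degrees of freedom was 1.92 to 3.14 within groups. The replicates of a group thus spread more than random sampling gives. Each value pools the 3 libraries of a group, so it cannot exclude near-copies among them. Denser genes, among them Tff3, Spink4 and Zg16, were left out of this check. Same-numbered replicates were not taken as pairs. Values of 1 gene are withheld and not reported here.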

Additional observations from a re-analysis of the deposited data

How the results depend on the processing

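Over the alternatives, 3497 of 3569 fold changes of the goblet cell genes kept their side of the threshold, 49 lost the call and 23 gained one. Of the 820 that belong to called results 0 changed sign, and of the 2749 that belong to uncalled ones 138 did. For 30 genes of the other lists 1132 of 1200 kept their side, 62 lost the call and 6 gained one, and 0 of 1060 called and 5 of 140 uncalled ones changed sign. The number of members called, 14 with IL-22, was 12 to 14 across other settings and 10 to 15 leaving out 1 library. It was 12 with both cytokines (12 to 14; 11 to 13) and 15 for both against IL-1b (12 to 17; 12 to 16). For both against IL-22, 0 became 2 with the DESeq2 Wald test and 2 with no filter, and 0 to 1 leaving out 1 library. It stayed at 0 for IL-1b and the interaction in every setting run.

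Corrected for count per exon base, the median of secreted products with IL-22 went from 0.11 to -0.0242, and the medians with both cytokines moved from 0.073 to -0.0499 for secreted products and from -0.36 to -0.28 for transcription factors. Leaving out 1 library, the median of secreted products with IL-22 ranged from 0.0416 to 0.189, with total counts it was 0.054, and that with IL-1b ranged from -0.0942 to 0.0246, and that of transcription factors with both cytokines from -0.45 to -0.23. The cause was not tested.

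Over all genes, scaling by total counts gave 1206 higher and 1991 lower with IL-22 (main 1661 and 1483), 1495 and 2262 with both (1920 and 1863) and 1391 and 2387 for both against IL-1b (1860 and 1822). The IL-22 count of 3144 was 1992 without unstimulated replicate 2. The IL-1b count of 10 was 32 with DESeq2, 212 with no filter and 28 without unstimulated replicate 3. The count of 11 for both against IL-22 was 87 with DESeq2, 336 with no filter, 6 with only the libraries compared, 7 with the replicate block, 5 with the trend removed and 3 to 72 leaving out 1 library. The interaction count of 0 was 4 with DESeq2, 50 with no filter and 1 without IL-1b replicate 1.

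Same-numbered libraries correlated between -0.188 and 0.179 over 18 pairs, and 2 of 12 correlated best with their own number. With the replicate block 14, 0, 12, 0, 15 and 0 members were called in the 6 contrasts, and it changed no member's call. With 3 libraries a group and few counts, depth limits Tff1 and Tff2, which were not tested, and among the tested members Retnlb and Gfi1 had the lowest mean counts (32.1 and 34.0 per library).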
